A study of Rattus norvegicus with 20 samples.

Results

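The genes described here are 5 genes that mark the epithelium of the rat choroid plexus: Folr1 (ENSRNOG00000019902), Clic6 (ENSRNOG00000026870), Kcnj13 (ENSRNOG00000016057), Kl (ENSRNOG00000001092) and Otx2 (ENSRNOG00000056186). They were chosen by name, each symbol was tied to exactly 1 Ensembl identifier in the study's supplementary gene tables, and they are 5 of the 32883 genes in each file. Total RNA of choroid plexus of the lateral and 4th ventricles was sequenced from 20 female Zucker rats aged 16 weeks, 1 library per rat. The lean group (n = 6, rats 1 to 6) was heterozygous (+/fa) and the obese group (n = 6, rats 7 to 12) homozygous (fa/fa) for the mutated leptin receptor, and neither was injected. The lean + VEH group (n = 4, rats 13 to 16) was lean and received sesame oil, and the obese + TT group (n = 4, rats 17 to 20) was obese and received testosterone propionate in sesame oil. The fa allele is carried in the whole body and is present in 1 copy in the lean rats too, no obese rat received oil alone, and no lean rat received testosterone. Obesity and the fa/fa genotype therefore cannot be told apart in any comparison of obese with lean rats, nor can testosterone from both between the injected groups. The injections, the cohort and, in obese rats, testosterone cannot be told apart between injected and untreated rats.

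The choroid plexus is a folded sheet of epithelium around a stroma with leaky capillaries, and this epithelium secretes cerebrospinal fluid and forms the barrier between blood and that fluid. Otx2 encodes a homeodomain transcription factor needed to form and maintain the choroid plexus. Folr1 encodes folate receptor alpha, which carries folate from blood into the cerebrospinal fluid. Kl encodes klotho, a membrane protein that serves as co-receptor for fibroblast growth factor 23 and is also shed. Kcnj13 encodes the inwardly rectifying potassium channel Kir7.1 of the apical membrane, and Clic6 encodes a member of the chloride intracellular channel family.

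Promoter sequences are shown for Kcnj13 and Kl, the 2 of the 5 genes matched in the promoter table, since both were higher in injected rats on every scaling run. They come from RefSeq on assembly GRCr8 and run from 250 bases before to 50 bases after an annotated start, printed 5′ to 3′ on the strand of the gene. The Kcnj13 window is chr9:95518937-95519236 on the minus strand and the Kl window is chr12:5325753-5326052 on the plus strand. Letters were searched on both strands, namely TAATCC (the core letters bound by OTX proteins), CCAAT and TATAAA, and capitals mark every match. 
Kcnj13: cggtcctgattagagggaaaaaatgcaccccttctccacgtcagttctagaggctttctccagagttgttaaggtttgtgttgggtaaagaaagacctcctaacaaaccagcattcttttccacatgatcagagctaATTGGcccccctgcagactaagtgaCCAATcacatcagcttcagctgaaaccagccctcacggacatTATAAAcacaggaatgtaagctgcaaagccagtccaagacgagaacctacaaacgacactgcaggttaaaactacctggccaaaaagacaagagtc
Kl: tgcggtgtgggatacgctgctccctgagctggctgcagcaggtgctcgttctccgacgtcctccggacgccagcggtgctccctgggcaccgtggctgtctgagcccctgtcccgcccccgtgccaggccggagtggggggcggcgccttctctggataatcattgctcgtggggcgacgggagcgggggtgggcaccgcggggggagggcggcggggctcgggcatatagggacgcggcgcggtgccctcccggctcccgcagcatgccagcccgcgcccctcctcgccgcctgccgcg
The Kcnj13 window held TATAAA once, 46 bases before the start, and CCAAT in both orientations, 88 and 113 bases before it. TATAAA occurs in 14.2% and CCAAT in 37.5% of the 33469 promoter windows of this length. The Kl window held none of these letters, and TAATCC, present in 7.17% of all windows, was in neither. The Kl window was 75% G and C with 35 CpG dinucleotides, a higher GC content than 96.8% of windows. The Kcnj13 window was 46.3% G and C with 5 CpG, above 30% of windows in GC content, whereas the median window had 51.7% and 7. On GRCr8, Kcnj13 lies within the span of Gigyf2, which is transcribed from the opposite strand. No source used here states that reads were counted by strand, so reads of these 2 genes cannot be told apart where they overlap. Otx2, Folr1 and Clic6 are named only.

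Levels are given in TPM, a length-corrected share of all transcripts in a library in which every library sums to 1000000. Sequencing depth cannot be read from TPM, so no counting error can be attached. The tissue label fitted its defining marker, since Ttr, the thyroxine carrier of this epithelium, made up 25.77 to 39.33% of all TPM in every rat. In untreated rats the 5 genes kept the order Folr1, Clic6, Kcnj13, Kl and Otx2 in all 12 libraries.

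Folr1 was the most abundant of the 5 genes in untreated rats, between rank 60 and rank 72 of all genes in each library. It ranged from 997.2 to 1161.7 TPM (median 1105.4) in lean rats and from 970.4 to 1111.8 TPM (median 1090.3) in obese rats. The 4 lean + VEH rats had 1400.2, 1392.0, 1245.0 and 1379.9 TPM, and the 4 obese + TT rats had 1332.3, 1479.0, 1454.9 and 1364.0 TPM. Every injected rat was above every untreated rat, here and for each of the genes below. Of all genes tested, 34.0% were higher without overlap in lean + VEH against lean rats. In obese + TT against obese rats 34.1% were. The share over all injected against all untreated rats was not computed. The spread within a group was the narrowest of the 5 genes in untreated rats, with a coefficient of variation of 5.53% in lean and 5.07% in obese rats.

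Clic6 ranged from 739.9 to 859.9 TPM (median 803.5) in lean rats and from 669.1 to 885.9 TPM (median 782.2) in obese rats. The lean + VEH rats had 1149.7, 1184.4, 1156.4 and 1320.5 TPM, and the obese + TT rats had 1144.0, 1211.0, 1239.6 and 1181.7 TPM. The lean range lay within the obese range, the ranges of the injected groups overlapped, and no injected rat fell into the untreated range.

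Kcnj13 varied most among lean rats and, after Otx2, among obese rats, with a coefficient of variation of 17.4% in lean and 23.5% in obese rats against 5.11% in lean + VEH and 6.97% in obese + TT rats. It ranged from 458.1 to 769.2 TPM (median 626.1) in lean and from 465.9 to 872.2 TPM (median 571.2) in obese rats. The lean + VEH rats had 1245.3, 1299.3, 1249.8 and 1388.0 TPM, and the obese + TT rats had 1207.4, 1145.6, 1253.9 and 1350.5 TPM. Its lean range met that of Clic6 at the edge, although Clic6 was above Kcnj13 within each untreated library. In 7 of 8 injected rats Kcnj13 stood above Clic6, the reverse of the untreated order, and in 2 lean + VEH rats it also stood above Folr1. Gigyf2, which overlaps Kcnj13, was at 71.11 ± 9.90 TPM (SD, n = 6) in lean, 75.59 ± 13.6 TPM (n = 6) in obese, 135.5 ± 10.9 TPM (n = 4) in lean + VEH and 143.5 ± 6.43 TPM (n = 4) in obese + TT rats, so it too was higher in every injected rat, and its part in the Kcnj13 values was not tested.

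Kl ranged from 346.5 to 479.6 TPM (median 415.9) in lean and from 349.1 to 488.8 TPM (median 426.5) in obese rats. The lean + VEH rats had 890.1, 876.5, 894.2 and 921.5 TPM, and the obese + TT rats had 981.5, 886.6, 902.8 and 1040.9 TPM. The lowest injected rat was thus far above the highest untreated rat, and the lean + VEH rats lay closer together than in any other group of any of the 5 genes, with a coefficient of variation of 2.11%. In the untreated groups the ranges of Kl and Kcnj13 overlapped at their edges, so these neighbours in the order of group means do not differ beyond their spread in every rat, although Kcnj13 was above Kl within each library.

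Otx2, the transcription factor among the 5 genes, was the least abundant. It ranged from 57.70 to 77.63 TPM (median 64.96) in lean rats. In obese rats it ranged from 7.85 to 85.94 TPM (median 69.71), with 5 rats between 67.29 and 85.94 TPM and rat 10 alone at 7.85 TPM. The lean + VEH rats had 119.99, 112.38, 116.89 and 128.08 TPM. The obese + TT rats had 110.51, 107.30, 115.01 and, in rat 20, 200.06 TPM. Rat 10 and rat 20 stood apart from their groups in opposite directions, and the mean without them was 74.31 ± 7.88 TPM (SD, n = 5) in obese and, among obese + TT rats, 110.9 ± 3.87 TPM (SD, n = 3).

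**Figure D1:**
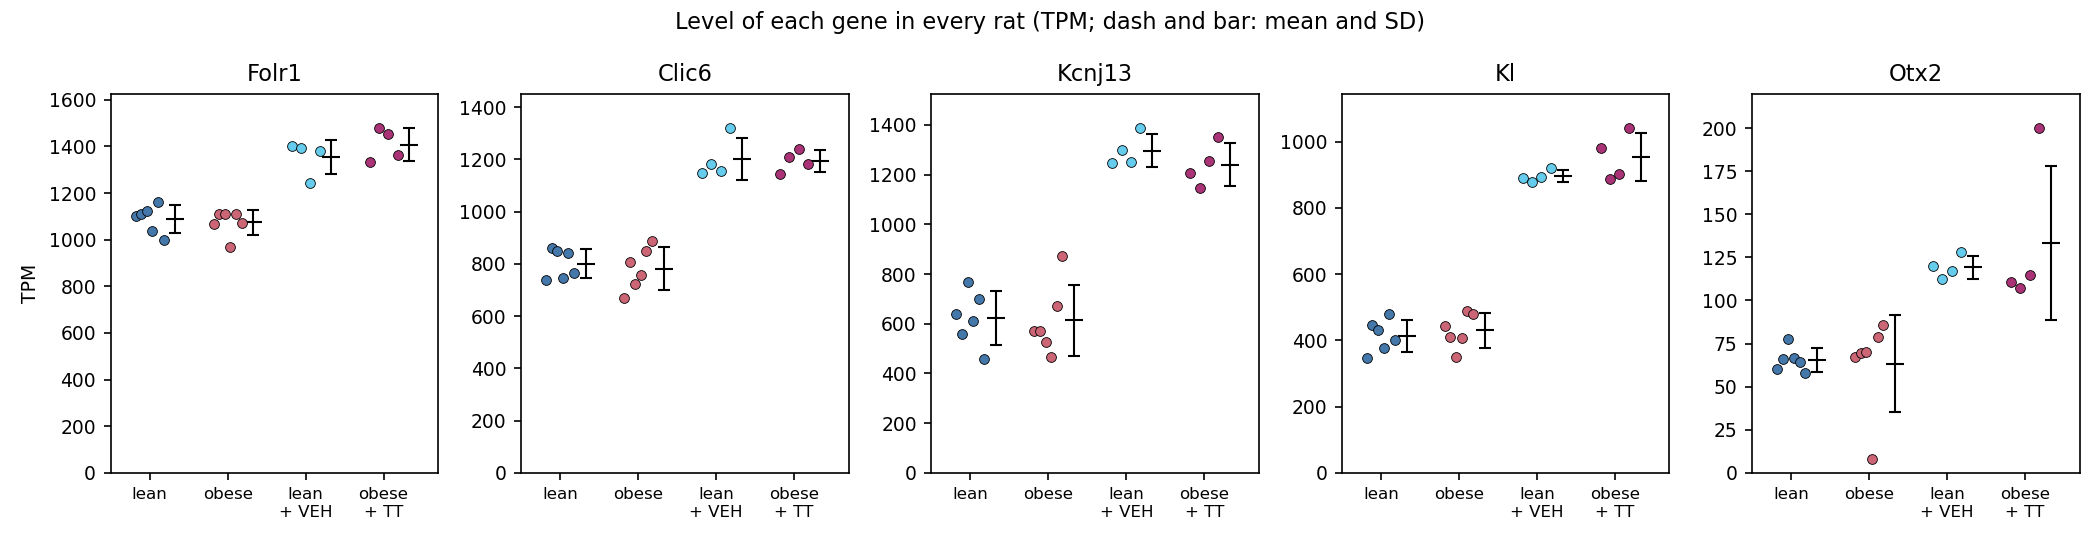
TPM of the 5 genes (vertical axes, each from 0) in every rat by group, with dash and bar for the mean and SD. For each gene all 8 injected rats lie above all 12 untreated rats, while lean and obese rats overlap, and Otx2 shows 1 obese rat at 7.85 TPM and 1 obese + TT rat at 200.06 TPM. Of all genes tested, 34.0% were higher without overlap in lean + VEH against lean and 34.1% in obese + TT against obese rats. The share for 8 against 12 rats was not computed.

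The low Otx2 value of rat 10 was 11.2% of the median of the other obese rats. Among 6472 genes averaging 10 TPM or more, 6 other genes were at least as far below the median of the other obese rats in this library. All 6 were listed at 0 in rat 10 and in at least 1 other library, whereas Otx2 was above 0 in all 20. Of these only Tmem167a, a gene chosen after its values were seen, has a symbol here. Across those 6472 genes the median difference of rat 10 from the other obese rats was -0.15 on the log2 scale, and Folr1 at 970.4 TPM was the lowest of its group in the same rat. The high value of rat 20 was 181% of the median of the other obese + TT rats, and 24 other genes stood at least as far above that median. Of those, 6 have a symbol, chosen after their values were seen: the class I histocompatibility genes RT1-A2 and RT1-S3, the class II genes RT1-Db1 and RT1-Da, the invariant chain Cd74, and AY172581.9. Cd74, at 68.93 TPM in rat 20 and 26.43 to 52.92 TPM in the other 3, is also the macrophage marker with a symbol, and its part in the Otx2 value was not tested.

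Obesity without injections, together with the fa/fa genotype, was addressed by the comparison of obese with lean untreated rats. None of the 5 genes passed the test. The group means were 1074 ± 54.4 against 1088 ± 60.2 TPM for Folr1, 782.1 ± 81.3 against 800.8 ± 56.1 TPM for Clic6, 613.0 ± 144.1 against 622.6 ± 108.6 TPM for Kcnj13 and 429.7 ± 52.1 against 413.2 ± 48.6 TPM for Kl (SD, n = 6 each). Otx2 averaged 63.24 ± 28.0 TPM in obese and 65.41 ± 6.88 TPM in lean rats. For each gene the means differed by less than the SD of either group. The limma test across all genes on log2(TPM + 0.1) called 0 of 15176 genes at a Benjamini-Hochberg adjusted p under 0.05 (0.0%, with 1466 genes at an unadjusted p under 0.05). In the same limma fit the log2 fold changes were -0.02 for Folr1 (95% confidence interval -0.13 to 0.10, adjusted p = 0.953), -0.04 for Clic6 (-0.19 to 0.12, 0.918), -0.03 for Kcnj13 (-0.34 to 0.28, 0.971) and 0.06 for Kl (-0.14 to 0.25, 0.898). The difference of Otx2 was -0.35 (-1.33 to 0.62, limma adjusted p = 0.853), and without rat 10 it turned to 0.18 (adjusted p = 0.469). Hence for Folr1 and Clic6 the interval left room only for differences under 0.20 on the log2 scale in either direction, while that of Otx2 was several times wider. The exact two-sided permutation p of the 5 genes lay between 0.578 for Kl and 0.965 for Otx2, where 6 rats against 6 can reach 0.00216. All 5 genes had overlapping groups. Over all genes tested, 0.54% did not overlap, 0.297% in the higher direction.

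Obese + TT rats were compared with lean + VEH rats to address obesity together with testosterone, and again none of the 5 genes passed. Means were 1408 ± 70.5 against 1354 ± 73.3 TPM for Folr1, 1194 ± 40.9 against 1203 ± 79.9 TPM for Clic6, 1239 ± 86.4 against 1296 ± 66.3 TPM for Kcnj13, 953.0 ± 71.8 against 895.6 ± 18.9 TPM for Kl and 133.2 ± 44.7 against 119.3 ± 6.61 TPM for Otx2 (SD, n = 4 each). The means of Folr1, Clic6 and Kcnj13 differed by less than either SD. The limma test called 0 of 15259 genes (0.0%, with 1134 at an unadjusted p under 0.05). The limma log2 fold changes were 0.06 for Folr1 (95% confidence interval -0.10 to 0.21), -0.01 for Clic6 (-0.16 to 0.14), -0.07 for Kcnj13 (-0.23 to 0.09), 0.09 for Kl (-0.06 to 0.23) and 0.11 for Otx2 (-0.28 to 0.50). Their limma adjusted p-values lay between 0.807 for Kl and 0.985 for Clic6. All groups overlapped, against 4.02% of genes tested whose groups did not (2.37% in the higher direction), and the exact permutation p ranged from 0.229 for Kl to 0.971 for Otx2 (the smallest possible is 0.0286). Without rat 20 the Otx2 difference changed sign to -0.10 (limma adjusted p = 0.70).

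The difference between these 2 contrasts was also tested, in 1 limma fit of all 20 libraries, and it called 0 of 15406 genes (0.0%, with 1288 at an unadjusted p under 0.05). For the 5 genes it lay between -0.03 for Kcnj13 and 0.46 for Otx2 on the log2 scale, with adjusted p-values from 0.853 for Folr1 to 0.982 for Kcnj13. The interval was -0.10 to 0.24 for Folr1 and -0.85 to 1.77 for Otx2.

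Between the cohorts, by contrast, the 5 genes stood at other levels, with the highest ratio of means for Kl in both comparisons. In lean + VEH against lean rats the ratio of the means was 2.17 for Kl, 2.08 for Kcnj13, 1.82 for Otx2, 1.5 for Clic6 and 1.24 for Folr1. The limma log2 fold changes were 1.12 ± 0.08 for Kl (standard error, adjusted p = 4.58e-07), 1.07 ± 0.12 for Kcnj13 (9.79e-06), 0.87 ± 0.08 for Otx2 (1.82e-06), 0.59 ± 0.07 for Clic6 (1.61e-05) and 0.32 ± 0.06 for Folr1 (0.00109). All 5 genes were thus called higher, against a background of 58.2% of 15326 genes called, 41.7% of all genes being called higher. In 1 limma fit of all 20 libraries Otx2 was not called (adjusted p = 0.0981). No rat of one group reached into the other for any of the 5 genes, as for 34.0% of all genes tested in this direction and 44.8% in either, and each exact two-sided permutation p was 0.00952, the smallest that 4 rats against 6 can give.

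Obese + TT rats against obese rats gave much the same sizes. The ratio of means was 2.22 for Kl, 2.02 for Kcnj13, 2.11 for Otx2, 1.53 for Clic6 and 1.31 for Folr1. The limma log2 fold changes were 1.16 ± 0.09 for Kl (adjusted p = 1.97e-06), 1.04 ± 0.14 for Kcnj13 (6.58e-05), 0.62 ± 0.08 for Clic6 (4e-05) and 0.39 ± 0.06 for Folr1 (0.000137). Otx2 was at 1.33 ± 0.57 and was not called (limma adjusted p = 0.063), although its groups did not overlap (exact permutation p = 0.00952). Without rat 10 it was at 0.80 and was called (limma adjusted p = 0.00218), and without rat 20 it was at 1.12 (adjusted p = 0.158). So 4 of the 5 genes were called, against 58.1% of 15389 genes (41.7% higher), and all 5 had groups that did not overlap, against 34.1% of genes in this direction and 45.8% in either. These cohort comparisons use the same rats as the comparisons above and are not independent of them.

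**Figure D2:**
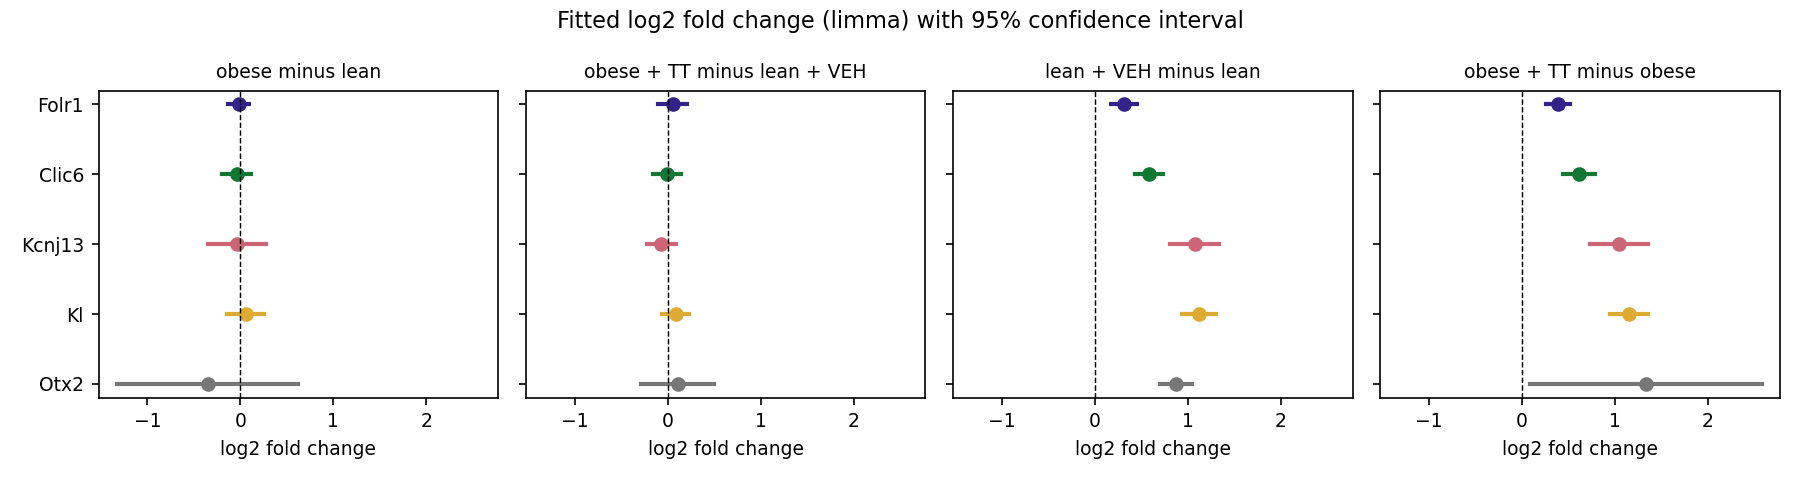
Fitted log2 fold change (horizontal axis, points) of the 5 genes in the 4 comparisons, with lines for the 95% confidence interval from limma. The intervals of the left 2 panels all include 0, and in the right 2 panels those of Kl, Kcnj13, Clic6 and Folr1 lie above 0, as does that of Otx2, which is wide in both comparisons that hold rat 10.

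Since 58.2 and 58.1% of all genes differed between the cohorts, the 5 genes were placed among the 6472 genes averaging 10 TPM or more. In lean + VEH against lean rats, where the median of these genes was 0.19 on the log2 scale, Kl lay at the 93.9th percentile, Kcnj13 at the 92.9th, Otx2 at the 88th, Clic6 at the 76.3rd and Folr1 at the 59.2nd. In obese + TT against obese rats the percentiles were 94.6 for Kl, 92.4 for Kcnj13, 97 for Otx2, 77.2 for Clic6 and 63.6 for Folr1. Of the 5 genes, Folr1 was the nearest to the middle of these genes in both comparisons.

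How large these differences were depended on the scaling of the libraries. Both Ttr and the sum of the deposited FPKM differed between the cohorts. Ttr made up 31.15 to 39.33% of TPM in untreated and 25.77 to 30.54% in injected rats. The FPKM total, which falls as the abundance-weighted transcript length rises, was 1108541 to 1219937 in untreated and 920964 to 995159 in injected rats. Across all genes tested the median log2 fold change on TPM was 0.24 in lean + VEH against lean and 0.25 in obese + TT against obese rats. Relative to that median Kl was 0.88 and 0.91 higher, Kcnj13 0.83 and 0.80, Otx2 0.63 and 1.09, Clic6 0.34 and 0.37, and Folr1 0.07 and 0.15. Of the genes called in lean + VEH against lean rats, 71.6% were higher on TPM, 62.6% after removal of Ttr, 49.9% on FPKM, 46.8% with a median-of-ratios factor and 26.9% with a factor from 25 other epithelial genes. In obese + TT against obese rats these shares were 71.8%, 58.6%, 48.5%, 47.3% and 23.6%.

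The call of Folr1, and on 1 scaling that of Clic6, depended on that choice. The difference of Folr1 in lean + VEH against lean rats was 0.21 after removal of Ttr (limma adjusted p = 0.00417), 0.06 on FPKM (0.381) and 0.02 with the median-of-ratios factor (0.782), and it reversed to -0.23 relative to the 25 epithelial genes (0.0116). In obese + TT against obese rats it was 0.24, 0.11, 0.10 and, relative to the 25 epithelial genes, -0.19 (limma adjusted p = 0.00165, 0.13, 0.159 and 0.0602). Clic6 stayed higher on the first 3 scalings and was 0.04 in both comparisons relative to the 25 genes (limma adjusted p = 0.593 and 0.659). Kl and Kcnj13 kept their direction and their call on every scaling run, and relative to the 25 genes Kl was 0.58 higher in both comparisons. Otx2 kept its direction on every scaling run too, and relative to the 25 genes it was 0.32 and 0.76 higher. It was called on each of these scalings in lean + VEH against lean rats and on none in obese + TT against obese rats.

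**Figure D3:**
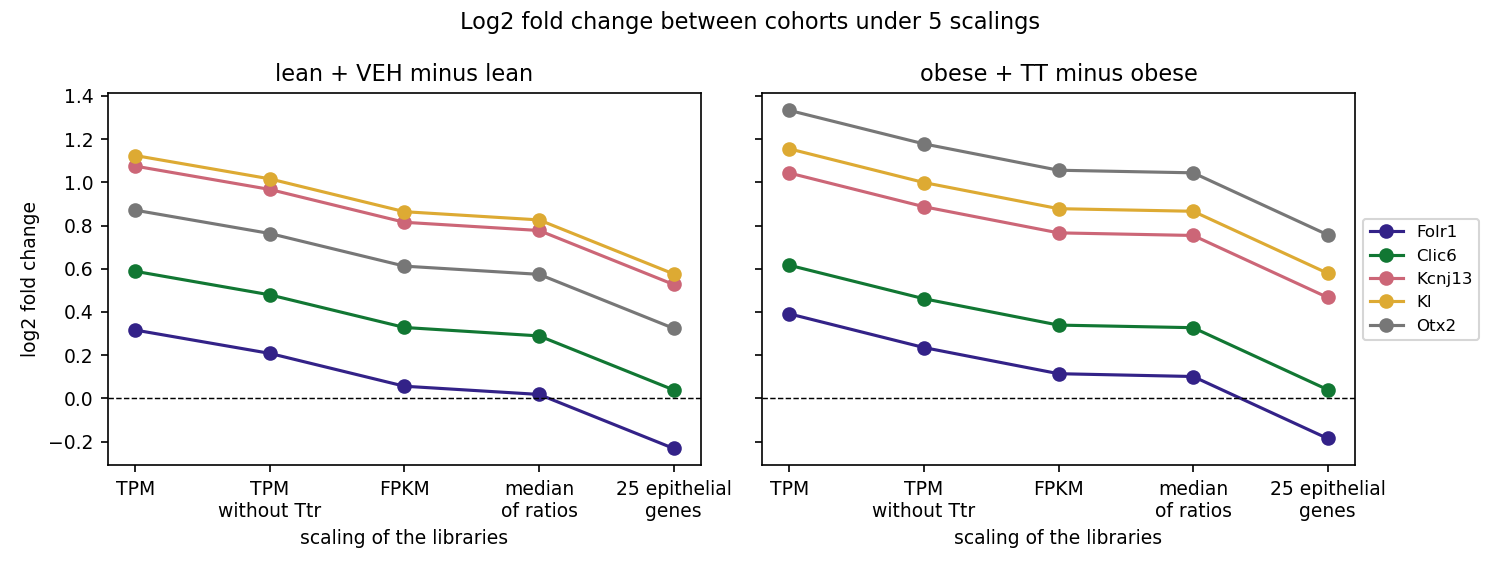
Log2 fold change (vertical axis) of the 5 genes between cohorts under 5 scalings of the libraries (horizontal axis), in lean + VEH against lean (left) and obese + TT against obese rats (right), the lines only joining points of 1 gene. The 5 genes move down together from TPM to the scaling on 25 epithelial genes, where Folr1 lies below 0, Clic6 lies near it and Kl, Kcnj13 and Otx2 stay above it.

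A ratio of 2 genes within a library does not depend on the scaling. The ratio of Kl to Folr1 was 0.380 ± 0.036 in lean, 0.401 ± 0.051 in obese (SD, n = 6 each), 0.663 ± 0.041 in lean + VEH and 0.680 ± 0.082 in obese + TT rats (SD, n = 4 each). That of Kcnj13 to Folr1 was 0.570 ± 0.080, 0.570 ± 0.129, 0.958 ± 0.057 and 0.883 ± 0.090 in the same order. Clic6 stood at 0.736 ± 0.039, 0.729 ± 0.078, 0.889 ± 0.064 and 0.849 ± 0.021 of Folr1, and Otx2 at 0.0602 ± 0.0056, 0.0580 ± 0.0254, 0.0883 ± 0.0062 and 0.0953 ± 0.0345.

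The proportions of the 5 genes differed between the cohorts as well as their levels. In lean + VEH against lean rats the log2 ratio to Folr1 was higher by 0.81 for Kl, 0.76 for Kcnj13, 0.56 for Otx2 and 0.27 for Clic6, each without overlap and with an exact two-sided permutation p of 0.00952. In obese + TT against obese rats it was higher by 0.76 for Kl (exact permutation p = 0.00952), 0.65 for Kcnj13 (0.019), 0.23 for Clic6 (0.019) and 0.94 for Otx2 (0.0286). After Benjamini-Hochberg adjustment over the 16 ratio comparisons, the exact permutation p was 0.0305 wherever it had been 0.00952, 0.0434 for Kcnj13 and Clic6, and 0.0572 for Otx2, which no longer passed. Only the Kl ratio had no overlap there, since 1 obese rat had a Kcnj13 ratio of 0.814, above the lowest obese + TT rat at 0.775. The Otx2 ratio without rat 10 differed by 0.43 (exact permutation p = 0.0476) and without rat 20 by 0.72 (0.0714). How many of all genes have a ratio to Folr1 without overlap was not computed, while 58.2 and 58.1% of all genes were called between the cohorts. Folr1 had the lowest log2 fold change of the 5 genes in both cohort comparisons, so the others each rose relative to it. Between lean and obese rats no ratio to Folr1 passed, with an exact permutation p from 0.452 for Kl to 0.961 for Otx2. Between the injected groups the p of the ratios to Folr1 ran from 0.229 for Kcnj13 to 0.971 for Otx2. The ratio of Kl to Kcnj13, given only as a description, averaged 0.679 in lean, 0.718 in obese, 0.692 in lean + VEH and 0.769 in obese + TT rats. The lean + VEH rats, at 0.664 to 0.715, did not overlap with the obese + TT rats, at 0.720 to 0.813. The exact permutation p of this ratio was 0.0286 there, the smallest that 4 rats against 4 can give. It was 0.543 in obese against lean, 0.743 in lean + VEH against lean and 0.41 in obese + TT against obese rats. The ratio was chosen after its values were seen and lies outside the 16 adjusted comparisons, so these p-values are a description only.

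**Figure D4:**
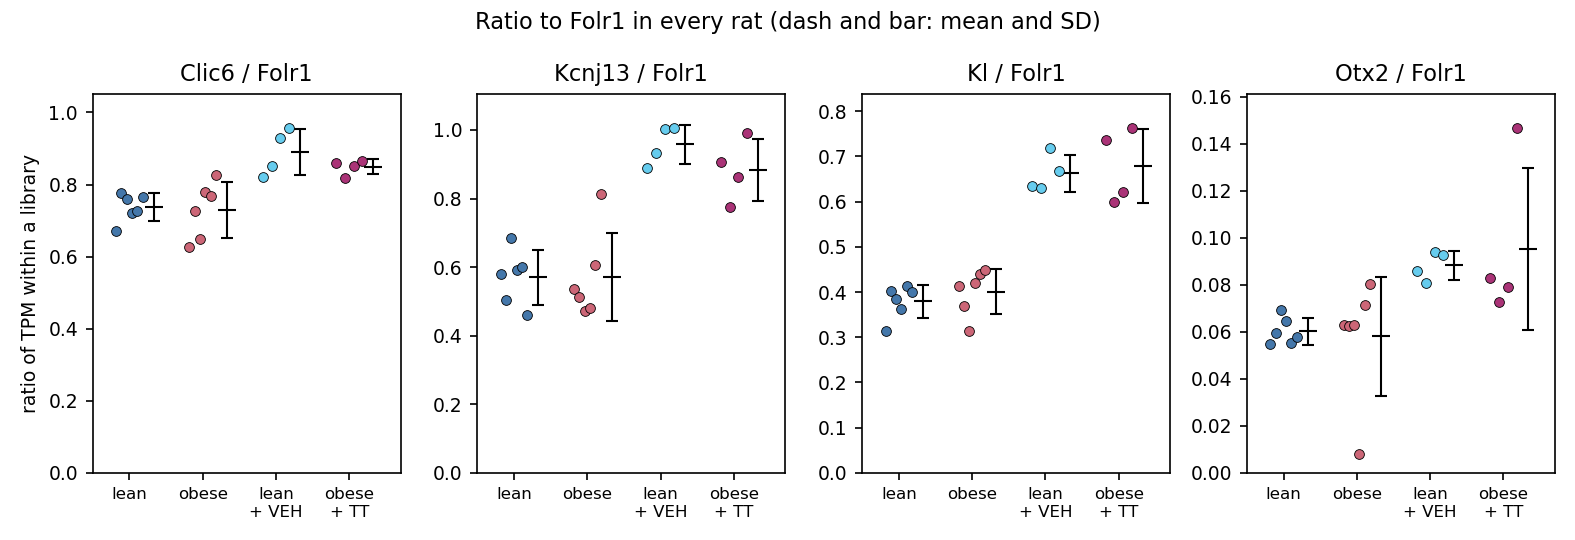
TPM of Clic6, Kcnj13, Kl and Otx2 divided by that of Folr1 in the same library (vertical axes from 0) for every rat by group, with dash and bar for the mean and SD. The Kl ratios of the 8 injected rats all lie above those of the 12 untreated rats, and the Otx2 ratio shows rat 10 at 0.00809 and rat 20 at 0.147. For how many of all genes a ratio to Folr1 lies so was not computed.

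Other genes of this epithelium moved unevenly between the cohorts. Of 26 other epithelial genes, all of which have a symbol, 17 rose, 3 fell and 6 did not pass in lean + VEH against lean rats, beside 41.7% of all genes called higher and 16.5% lower, with a median log2 fold change of 0.52 against 0.24 over all genes. The largest rises were Tmem72 (1.52), the calcium-permeable channel Trpm3 (1.41), coagulation factor F5 (1.37) and the anion transporter Slc13a4 (1.08), and the genes that fell included the tight junction gene Cldn1 (-0.48) and Calml4 (-0.18). In obese + TT against obese rats 16 rose, 2 fell and 8 did not pass, beside 41.7% and 16.4% of all genes (median 0.61 against 0.25 over all genes), with Tmem72 (1.56), F5 (1.3), Trpm3 (1.24) and Slc13a4 (1.20) as the largest rises and Cldn1 (-0.54) and Ttr (-0.35) as the falls. Scaled to 25 of these genes themselves, 8 and 10 of the 26 were called higher and 9 lower in each comparison. That factor centres these genes near 0, so a near balance of rises and falls follows from the scaling itself. None of the 26 was called in either obesity comparison (median -0.07 in untreated and 0 in injected rats), where the largest differences were 0.14 and -0.24 in untreated and 0.27 and -0.63 in injected rats.

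The pathway partners of the 5 genes were covered only in part, since symbols were available for 2616 genes. Beside the changes below, 41.7% of all genes were called higher in each cohort comparison. In lean + VEH against lean rats 16.5% were called lower, and in obese + TT against obese rats 16.4%. Of 9 klotho and fibroblast growth factor genes 2 could be read, and both, the growth factor receptors Fgfr1 and Fgfr2, were called higher. They rose by 0.86 and 0.61 in lean + VEH against lean and by 1.05 and 0.87 in obese + TT against obese rats. Of 8 folate genes 2 could be read, and the reduced folate carrier Slc19a1 (-0.27) and the hydrolase Ggh (-0.27) fell in the first comparison while Folr1 rose. In the second Ggh fell (-0.24) and Slc19a1 was at 0.03 and not called. Clic1, the 1 of 5 other chloride intracellular channel genes that could be read, fell in both comparisons (-0.42 and -0.57), opposite to Clic6. Of 10 other potassium channel genes 2 could be read: Kcne2, a channel subunit of this epithelium, was at -0.02 and 0.18 and not called, and Kcnk1 was at 0.17, not called, and rose by 0.19. Of 12 transcription factor genes 2 could be read, and Msx1 rose by 0.37 and 0.35, while Lmx1a was at -0.16, not called, in the first comparison and rose by 0.24 in the second. Neither obesity comparison called any gene of these lists. These values are on TPM, and Fgfr1, Fgfr2, Ggh and Clic1 kept their direction on the other 4 scalings. Kcnk1 in both comparisons and Kcne2, Lmx1a and Slc19a1 in the second lay below 0 on FPKM, with the median-of-ratios factor and relative to the 25 epithelial genes, and relative to those 25 Msx1 lay below 0 too (-0.17 and -0.23). In the first comparison Kcne2 was called lower on those same 3 scalings and Lmx1a on all 4, and in the second Slc19a1 was called lower on all 4. The rise of Msx1 was called in the first comparison also after removal of Ttr but not on the other 3, and its rise and those of Kcnk1 and Lmx1a in the second comparison were called on TPM only. Relative to the 25 epithelial genes Kcnk1 was called lower in both comparisons (-0.37 and -0.39). On that scaling Kcne2 (-0.39) and Lmx1a (-0.33) were called lower in the second comparison too. Relative to the 25 genes the rise of Fgfr2 in the first comparison was 0.06 and not called.

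Markers of other cells moved with the cohort as well, and in these bulk samples fewer cells of a type and less RNA per cell cannot be told apart. Plvap of the fenestrated endothelium, 1 of 7 endothelial genes with a symbol, was at 39.95 to 51.07 TPM in lean, 43.39 to 60.34 in obese, 1.68 to 10.58 in lean + VEH and 3.46 to 6.74 TPM in obese + TT rats. The 3 of 5 mural cell genes summed to 147.3 to 192.3 TPM in lean and 142.2 to 244.0 in obese rats, and to 13.7 to 21.68 in lean + VEH and 9.7 to 11.65 TPM in obese + TT rats. In lean + VEH against lean rats the pericyte gene Rgs5 (-4.47 on the log2 scale) and Tagln (-3.96) fell, while Myh11 was at -0.14 and not called. In obese + TT against obese rats Tagln (-5.09), Rgs5 (-4.59) and Myh11 (-1.07) fell. Of 3 fibroblast genes of 6, Dcn (-3.08) and Col1a1 (-3.10) fell in the first comparison and again in the second (-3.22 and -3.11), whereas Pdgfra rose by 1.31 and 1.08. The macrophage gene Cd74 (1 of 7) fell in both (-1.21 and -2.11), as did the astrocyte gene Gja1 (1 of 5, -1.74 and -0.90). The ependymal gene Dynlrb2 (1 of 6) was at -0.10 and -0.13 and not called. The 3 of 4 erythroid genes were not called in any comparison on TPM and summed to 2322 to 4057 TPM in lean, 3070 to 5230 in obese, 1622 to 4409 in lean + VEH and 3626 to 6002 TPM in obese + TT rats. On FPKM, with the median-of-ratios factor and relative to the 25 epithelial genes, Dynlrb2 was called lower in both cohort comparisons, and Myh11 and the erythroid genes Hba-a1 and Hba-a2 were called lower in lean + VEH against lean rats. After removal of Ttr, Hba-a2 was called lower in that comparison and Dynlrb2 in obese + TT against obese rats. None of 6 neuronal and 4 oligodendrocyte genes had a symbol. No marker with a symbol was at 0 in every library of a group. The part of these markers in the higher levels of the 5 genes was not tested.

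Covariation across rats was described within each cohort after the mean of each group had been subtracted, since the cohorts form separate clusters. In the 12 untreated rats Pearson's r was above 0 for all 10 pairs of genes, from 0.21 to 0.69 (median 0.525), and Spearman's rho lay between 0.24 and 0.75. No pair passed after adjustment over the 20 pairs of both cohorts. The highest was Clic6 with Kl, r = 0.69 (exact permutation p = 0.0209, adjusted 0.208) and rho = 0.75 (p = 0.0104, adjusted 0.208), with r = 0.92 without the 2 rats farthest in Clic6. Folr1 with Otx2 had r = 0.66 (exact permutation p = 0.0385, adjusted 0.208) and rho = 0.44 (p = 0.0872, adjusted 0.367), and r = -0.05 without the 2 farthest rats, so it rested on those. Without rat 10, Kcnj13 and Otx2 reached r = 0.84 (exact permutation, adjusted p = 0.0493) where the value with it was 0.54. Rat 10 was left out here after its Otx2 value was seen, and on TPM only, so this p-value is a description.

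The signs changed with the scaling of the libraries. After removal of Ttr r stayed above 0 in 6 of 10 pairs, and with the median-of-ratios factor in 5 of 10. In the 8 injected rats 6 of 10 pairs were above 0, from -0.57 for Folr1 with Kl to 0.81 for Kl with Otx2 (exact permutation p = 0.203 and 0.0417, adjusted 0.395 and 0.208), with rho = -0.76 and 0.62 (exact permutation p = 0.0903 and 0.128, adjusted 0.367 for both). Without rat 20, also left out after its Otx2 value was seen, Kl with Otx2 was at r = 0.40.

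Each gene was also set against 2 measures of the library, Ttr and the FPKM total, 20 relations in all. Among untreated rats Folr1 ran opposite to Ttr, with r = -0.96 (exact permutation p = 2.89e-05, adjusted 0.000579) and rho = -0.91 (p = 0.000203, adjusted 0.00405), and with r = -0.86 without the 2 rats farthest in Ttr. Kcnj13 ran opposite to the FPKM total, with r = -0.89 (exact permutation p = 0.000255, adjusted 0.00255) and rho = -0.87 (p = 0.000818, adjusted 0.00818), and with r = -0.83 without the 2 farthest. No other of the 20 relations passed. In injected rats Folr1 with Ttr was at r = 0.35 (exact permutation p = 0.422, adjusted 0.496) and rho = 0.48 (p = 0.281, adjusted 0.402), and Kcnj13 with the FPKM total at r = -0.64 (p = 0.0764, adjusted 0.186) and rho = -0.57 (p = 0.142, adjusted 0.356), both by exact permutation. TPM of 1 library share a fixed total of which Ttr is 31.15 to 39.33% in untreated rats. A library with more Ttr therefore has less of that total left for all other genes together. A negative r of Folr1 with Ttr can arise from this alone, so its p-value cannot show a relation beyond the shared total. The relations were computed on TPM and under no other scaling, and the part of the shared total in them was not tested.

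**Figure D5:**
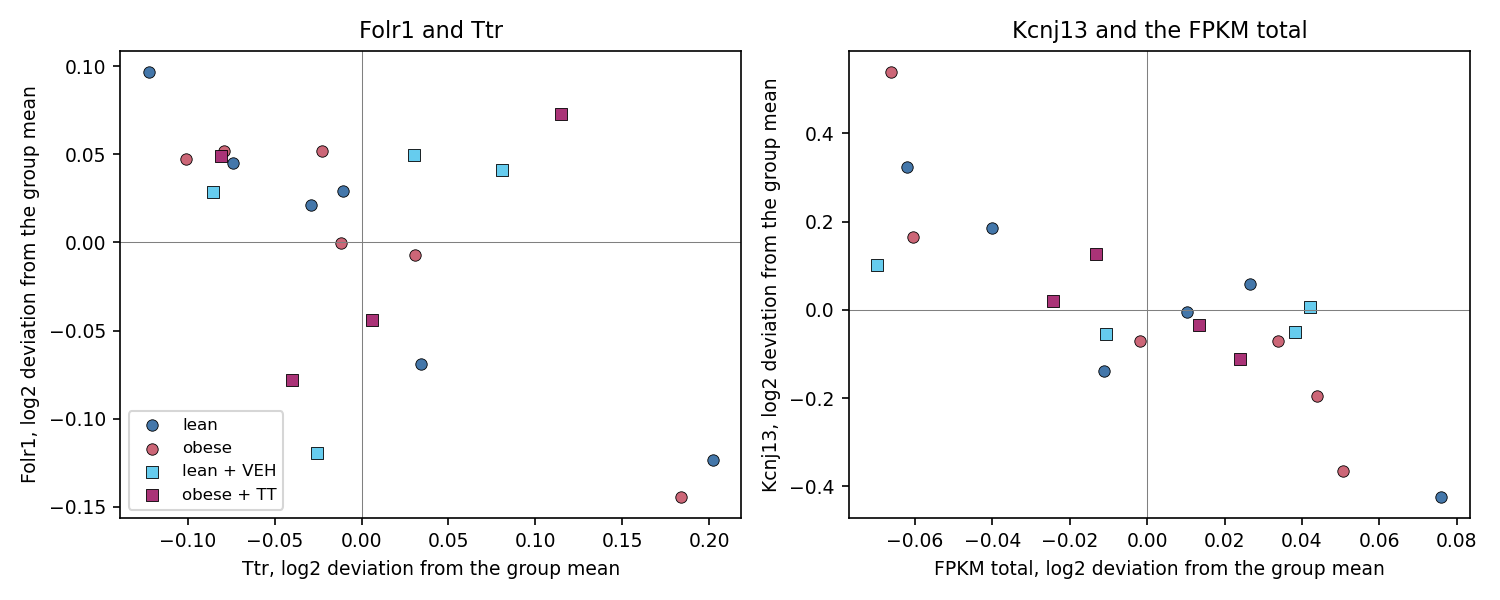
Deviation from the group mean on the log2 scale of Folr1 against that of Ttr (left) and of Kcnj13 against that of the FPKM total (right), 1 point per rat, circles untreated and squares injected. Untreated rats fall along a descending line in both panels (r = -0.96 and -0.89), and injected rats do not in the left panel (r = 0.35).

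The genes most like each of the 5 over the 20 libraries were ranked by Pearson's r of log2(TPM + 0.1) after subtraction of the group means, among 2376 genes that have a symbol and average 10 TPM or more, as a description. Kcnj13 was followed by Cfap69 (r = 0.92), Xpo1 (0.90) and the sulfatase Sulf1 (0.90), and Folr1 by Prpf19 (0.89), Bsg (0.87) and Mtch1 (0.87). Clic6 had Slc13a4 (0.87), Pigs (0.85) and Lamp1 (0.85), and Kl had Nfe2l1 (0.87), Cnnm2 (0.86) and AABR07028997.1 (0.86). Otx2 had lower values, with Sdc2 (0.77), Tra2b (0.73) and Arl6ip5 (0.73). For the mean of the 5 genes these were Serinc3 (0.89), Nckap1 (0.88) and Sulf1 (0.86). In Otx2, rat 10 and rat 20 lay -3.14 and 0.86 on the log2 scale from the median of the others of their groups. Rat 10 therefore weighs most in the Otx2 ranking, and no ranking was run without these rats. The median r over all 2376 genes was 0.40 for Folr1, 0.28 for Clic6, 0.37 for Kcnj13, 0.15 for Kl, 0.28 for Otx2 and 0.41 for the mean of the 5, and these points share library and scaling. Of these genes, Slc13a4 averaged 209.0 ± 21.6 TPM in lean (SD, n = 6) and 441.0 ± 47.0 TPM in lean + VEH rats (SD, n = 4), and Nfe2l1 averaged 37.03 ± 3.23 and 70.31 ± 3.67 TPM. Lamp1 averaged 120.4 ± 5.95 TPM in lean against 130.4 ± 11.6 TPM in lean + VEH rats, and Serinc3 averaged 95.89 ± 4.87 TPM in lean against 96.36 ± 4.20 TPM in lean + VEH rats.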

How the data were processed

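Choroid plexus total RNA of 20 rats was sequenced (paired-end, 150 bp) by a service company. Per the labels, the authors' processing notes name STAR 2.7.9a, RSEM 1.3.3 and DESeq2 3.16 and the build Rnor_6.0. The program that made the deposited values is not given in the sources used here. The authors deposited TPM and FPKM for 32883 Ensembl genes per rat, and the FPKM of a library are its TPM times 1 factor. The depth of each library can therefore not be read from these values. FPKM served only as an alternative scaling. Symbols came from the study's supplementary tables (2616 genes). The fold changes and p-values in those tables were not used.

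Groups were taken from the labels. Each comparison was fitted on its own groups with limma 3.58.1 (R 4.3.3) on log2(TPM + 0.1), keeping genes that averaged 0.1 TPM or more, with a trend in eBayes and Benjamini-Hochberg adjustment over all genes tested. Calls were made at adjusted p-values under 0.05. Because of the pseudocount a fold change understates that of low genes. Single genes and ratios were compared by exact permutation tests of mean log2 values, and figures were drawn with matplotlib 3.10.9. The fits were also run on simulated data, with noise drawn separately for each gene and library. Shifts shared by all genes of a library were not simulated, so that run cannot show how the fits behave under them. No 2 libraries of a group were alike (at most 1.92% identical values). Each library is labelled as a sample of its own, with no more said of its origin, and the p-values measure the spread between these libraries. Alternatives were the pseudocount, the minimum mean, the trend and robust options, 1 fit of all libraries, the scaling and leaving out single libraries.

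The 5 genes and the lists were chosen with earlier results of these data known. Genes named are these 5, the 3 genes most like each of them and their mean, and from each list those with the largest and smallest change and up to 4 called each way.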

Additional observations from a re-analysis of the deposited data

Results flagged for a closer look

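Samples far from the rest of their group were looked for in the TPM of the 5 genes and in the 4 ratios to Folr1, 36 groups in all. Were these independent, chance alone would flag about 1.8. There were 6, but the ratios reuse the same TPM values, so the 2 numbers cannot be compared directly. The flagged Otx2 ratios belong to the same rats as the flagged Otx2 values. Otx2 stood at 7.85 TPM in obese rat 10, where the other 5 obese rats had 67.3 to 85.9 TPM, and its ratio to Folr1 was 0.00809 there against 0.0623 to 0.0802. Otx2 stood at 200.06 TPM in obese + TT rat 20, where the other 3 had 107.3 to 115.0 TPM, and its ratio to Folr1 was 0.147 against 0.0725 to 0.0829. Folr1 was at 970.43 TPM in obese rat 10 and at 1245.0 TPM in lean + VEH rat 15, each the lowest of its group. Why these libraries stood apart was not tested.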

How the results depend on the processing

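No paired analysis was possible because every rat has a replicate number of its own and no 2 groups share one. Leaving out single libraries, the number of genes called ranged from 0 to 1 in obese against lean, 0 to 25 in obese + TT against lean + VEH, 8206 to 8822 in lean + VEH against lean, 8244 to 8908 in obese + TT against obese rats and 0 to 14 for the difference of the contrasts.

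Across other settings that number became 3 (all libraries in 1 fit), 1 (median of ratios), 1 (FPKM) and 2 (scaled to 25 epithelial genes, a setting chosen after seeing the data) in obese against lean rats, 6 (all libraries) and 2 (median of ratios) in obese + TT against lean + VEH rats, and 1 (minimum mean of 1 TPM), 1 (robust), 10 (without Ttr), 2 (median of ratios), 2 (FPKM) and 3 (25 genes) for the difference of the contrasts, and none of the 5 genes was among them. Relative to the 25 genes, 2 of the 5 genes were called in obese + TT against obese rats (otherwise 3 to 5). Of the 26 other epithelial genes, 3 and 2 were called lower between the cohorts on TPM, 4 and 5 without Ttr, 7 and 6 on FPKM, 8 and 6 with the median of ratios and 9 in each relative to the 25 genes.

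Relative to the 25 genes, obese minus lean was 0.042 for Folr1, 0.022 for Clic6 and 0.027 for Kcnj13, and obese + TT minus lean + VEH was 0.023 for Clic6. Lean + VEH minus lean fell for Folr1 to 0.018 (median of ratios), 0.056 (FPKM) and -0.232 (25 genes) and for Clic6 to 0.039 (25 genes), and obese + TT minus obese to 0.101, 0.114 and -0.186 for Folr1 and 0.04 for Clic6. In 1 fit of all libraries Otx2 was at 0.871 (adjusted p = 0.0981, not called) and 1.333 (0.0138, called). Without Ttr the difference of the contrasts was -0.019 for Clic6 and -0.017 for Kl.

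Leaving out single libraries, obese minus lean ranged from -0.043 to 0.01 for Folr1, -0.075 to 0.006 for Clic6, -0.141 to 0.04 for Kcnj13, 0.007 to 0.114 for Kl and -0.503 to 0.184 for Otx2, obese + TT minus lean + VEH from 0.016 to 0.082, -0.03 to 0.037, -0.107 to -0.028, 0.043 to 0.12 and -0.104 to 0.195, and the difference of the contrasts from 0.035 to 0.101, -0.015 to 0.075, -0.105 to 0.076, -0.027 to 0.08 and -0.075 to 0.612. Lean + VEH minus lean ranged from 0.292 to 0.356, 0.542 to 0.609, 0.99 to 1.14, 1.075 to 1.169 and 0.836 to 0.922, and obese + TT minus obese from 0.362 to 0.417, 0.573 to 0.654, 0.97 to 1.151, 1.097 to 1.194 and 0.796 to 1.483. The log2 ratios to Folr1 of Clic6, Kcnj13, Kl and Otx2 ranged from -0.056 to 0.023, -0.123 to 0.041, 0.021 to 0.143 and -0.488 to 0.174 in obese minus lean, -0.102 to -0.029, -0.178 to -0.06, -0.027 to 0.089 and -0.175 to 0.164 in obese + TT minus lean + VEH, and 0.183 to 0.263, 0.596 to 0.76, 0.696 to 0.822 and 0.434 to 1.096 in obese + TT minus obese rats, where the unadjusted exact permutation p of Otx2 rose to 0.0714 without rat 17 or rat 20.

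Correlations in untreated rats became, without Ttr and with the median of ratios, -0.13 and -0.19 for Folr1 with Clic6, -0.07 and -0.54 for Folr1 with Kl, -0.1 and -0.22 for Clic6 with Otx2, and -0.02 and -0.12 for Kl with Otx2, and -0.54 for Folr1 with Kcnj13 with the median of ratios. Without the 2 farthest libraries Folr1 with Otx2 was at -0.05 and Clic6 with Kl at 0.92, and without rat 10 Kcnj13 with Otx2 was at 0.84. In injected rats Folr1 with Otx2 was at 0.1 without rat 20, Clic6 with Kcnj13 at -0.07 without the 2 farthest, and Clic6 with Otx2 at -0.01 without Ttr or the 2 farthest. Rat 10 and rat 20 were left out of these correlations after their Otx2 values were seen. The cause of the changes in the correlations was not tested. The paper states a sequencing output but no read count per library, so no limit from the depth of a library can be given.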
